A study of Rattus norvegicus with 30 samples.

Results

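Gene expression at day 21 after immediate repair of the rat median nerve was set against day 14 of the same repair, across all genes, to see what changed in the regenerating tissue over that week. The comparison held 9 of the 30 samples of the series, chosen by their labels: 5 taken at day 21 and 4 taken at day 14. All animals were adult female Rattus norvegicus of WT genotype. In the immediate repair the median nerve, a mixed nerve of the forelimb, was cut to leave a gap of 8 mm, and a tube of chitosan 10 mm long was placed over the gap directly after the injury. The regenerated tissue was later taken from the tube, and its poly(A) RNA was sequenced. The other samples of the series entered the same fit, where they share in the estimate of spread, and are used below for their levels: tissue taken 7 days after immediate repair (4 samples), tissue taken 7, 14 or 21 days after a repair made 3 months after the cut, called delayed repair (5, 4 and 3 samples), and healthy median nerve (5 samples). The labels number the replicates without saying that each is a separate animal, so p-values measure the spread between these samples.

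When a nerve is cut, the axons beyond the cut degenerate, and Schwann cells, the glia of peripheral nerve, lose their myelin and divide. In a tube, a fibrin-rich bridge forms first, then fibroblasts, blood vessels and Schwann cells enter it, and axons grow along the Schwann cells toward the far stump. Schwann cells later wrap the larger of these axons and make myelin anew. The deposited table gives genes by Ensembl identifier only, and none of the identifiers could be paired with a symbol here, so no gene below is assigned a name or a role, and the tissue was not checked against marker genes. In whole tissue, fewer cells of a type and less RNA per cell cannot be told apart.

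Total counts of the 9 libraries lay between 12084994 and 16909602, and 16015 of the 32545 listed genes had enough counts to be tested. A library of the day 21 group, replicate 4, stood apart from the other 4. Its Spearman correlation with them, over log2 CPM of the tested genes (read counts scaled to a common library size), was 0.913 to 0.933, whereas the other 4 correlated with each other at 0.965 to 0.979. Its highest correlation with any of the 9 libraries was with day 14 replicate 2, at 0.966. On the leading principal component, which held 36.4% of the variance of the 9 libraries, day 21 replicates 1, 2, 3 and 5 lay at 32.7, 46.3, 37.4 and 60.7, and replicate 4 lay at -89.3. The day 14 replicates lay at -24.0, -55.1, -0.99 and -7.67, between replicate 4 and the other day 21 libraries. Replicate 4 had 19 genes that exceeded both 5 CPM and 10 times the value of every other library among the 9, and each of the others had 0 to 3 such genes. Its total of 15873797 counts lay within the range of the others, and the labels give no batch or remark that sets it apart. The biological coefficient of variation within the day 21 group was 40.6% with replicate 4 and 30.7% without it, and 35.2% within the day 14 group. The main results are therefore given with and without this library.

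With all 9 libraries, 41 genes were higher at day 21 than at day 14 and none were lower, which is 0.256% of the genes tested (quasi-likelihood test of edgeR, with p adjusted by Benjamini-Hochberg and a threshold of 0.05). Adjusted p-values of the 41 ran from 0.0109 to 0.0474. The rises were mostly large: 32 were at least 4-fold, 21 of these at least 16-fold, 7 lay between 2-fold and 4-fold, and 2 were smaller. Their median log2 fold change was 4.02, with a median SE of 0.79, where the median over all tested genes was 0.01. Before adjustment, 1208 genes (7.54%) had an edgeR p under 0.05, with the estimate higher at day 21 in 856 and lower in 352. Among these the median log2 fold change was 1.33 for the higher and -0.51 for the lower genes. The 95% intervals reached a median of 0.58 to either side of the log2 estimate. For 57.4% of genes the whole interval was inside 2-fold, and for the others a 2-fold change was not excluded at this precision.

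**Figure D1:**
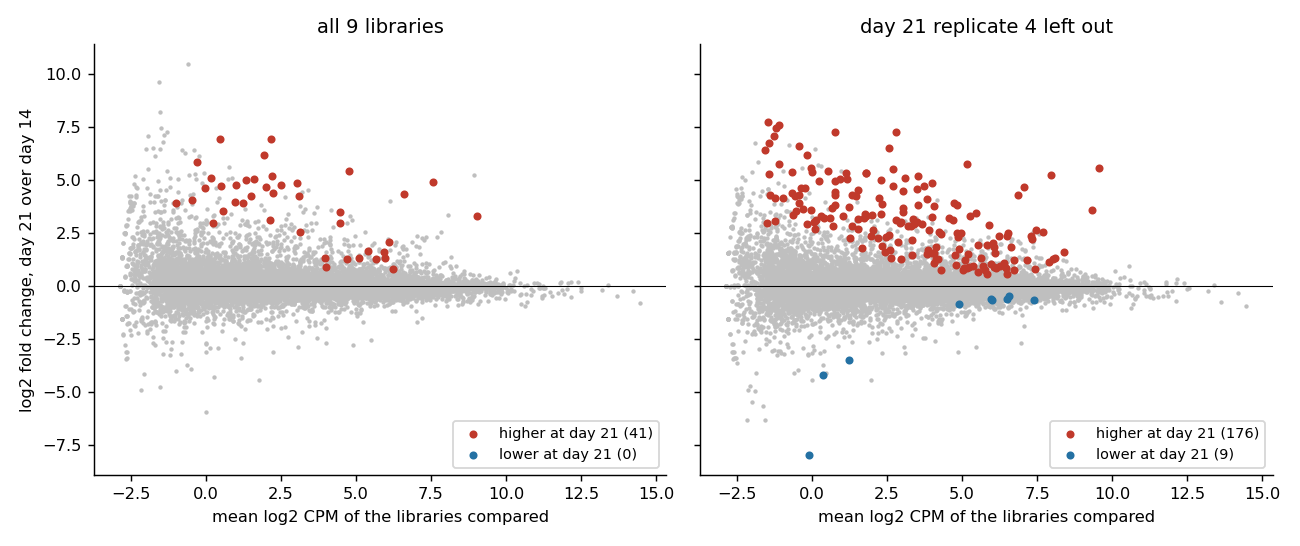
Log2 fold change of day 21 over day 14 of immediate repair (vertical axis) against mean log2 CPM of the libraries compared (horizontal axis), 1 point per gene, with all 9 libraries at left and with day 21 replicate 4 left out at right. Colored points have an edgeR adjusted p under 0.05: 41 higher and 0 lower at left, 176 higher and 9 lower at right.

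The 41 genes took a larger share of the RNA at day 21 in 4 of the 5 libraries, which is a description, since the same libraries chose the genes. Together they held 0.844%, 0.538%, 0.601%, 0.0485% and 1.00% of all counts in day 21 replicates 1 to 5, against 0.0479%, 0.0615%, 0.0596% and 0.0785% in day 14 replicates 1 to 4. Day 21 replicate 4 lay among the day 14 libraries, and the other day 21 libraries lay above all of them. The mean share was 0.606% ± 0.363 (SD, n = 5) at day 21, or 0.746% ± 0.215 (n = 4) without replicate 4, and 0.0619% ± 0.0126 (SD, n = 4) at day 14. In healthy nerve the same genes held 4.13% to 5.31% of counts. Gene by gene, the median log2 difference from the day 14 mean was 4.24, 3.34, 3.65, -0.18 and 4.69 in day 21 replicates 1 to 5. The median over all tested genes lay between -0.01 and 0.02 in each of the 9 libraries. Replicate 4 was the lowest of the day 21 libraries in 39 of the 41 genes and above the highest day 14 library in 9 of them. Over all tested genes, replicate 4 was the lowest of its group in 25.9%.

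Both groups stood far below healthy nerve for these genes, and day 21 stood nearer to it. Against the control mean, the median over the 41 genes was -2.42, -3.08, -2.73, -6.74 and -2.11 on the log2 scale in day 21 replicates 1 to 5, and -7.33, -6.86, -7.23 and -6.08 in day 14 replicates 1 to 4. At day 21, 32 of the 41 genes were on average still at least 4-fold below control, 5 were 2-fold to 4-fold below, 3 lay within 2-fold and 1 was at least 2-fold above. At day 14, 40 of the 41 were at least 4-fold below control and 1 lay within 2-fold. At day 7 of immediate repair 39 were at least 4-fold below. Of all 16015 tested genes, 1097, 1438 and 2866 were at least 4-fold below control at days 21, 14 and 7 of immediate repair. The immediate day 14 libraries were one side of the contrast that chose these genes, so their lower place than day 21 follows from that choice. At day 14 of delayed repair, outside that contrast but in the same fit, all 41 genes lay below every control library, which held for 27.8% of all tested genes.

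**Figure D2:**
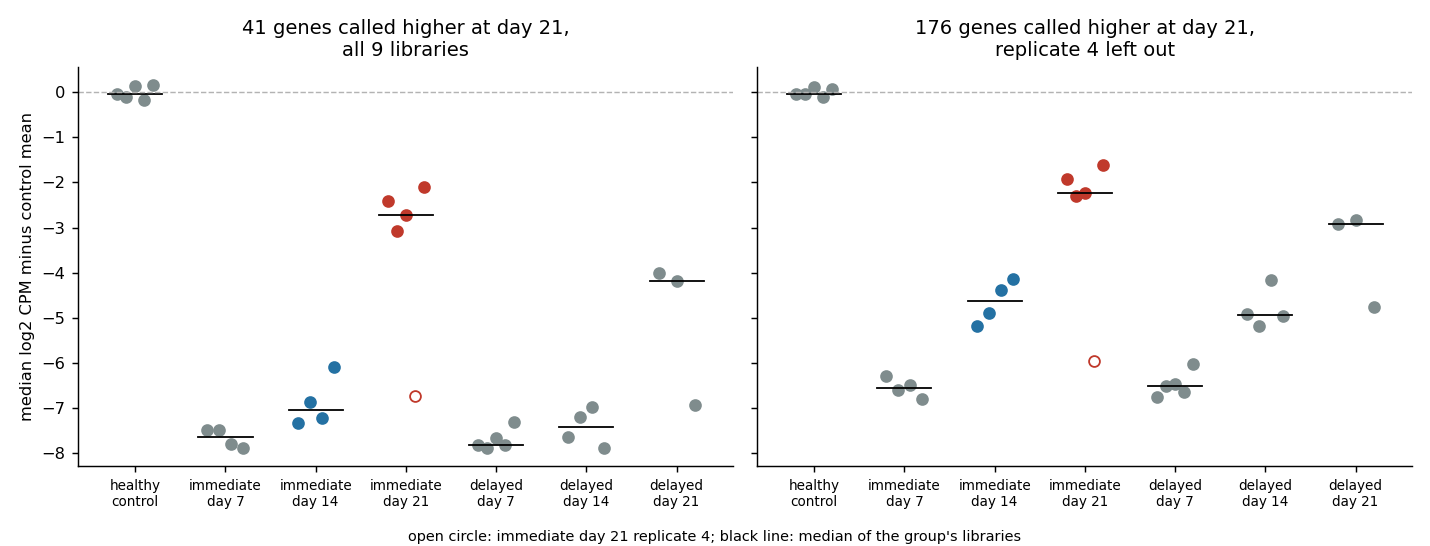
Median log2 CPM of the genes called higher at day 21, minus their mean in healthy control nerve, for each of the 30 libraries (points), by group, with the group's median as a line. Left, the 41 genes called with all 9 libraries; right, the 176 called with day 21 replicate 4 left out. The open circle, replicate 4, lies at -6.74 at left and -5.95 at right, while the other day 21 libraries lie between -3.08 and -1.61.

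Without day 21 replicate 4, 176 genes were higher at day 21 than at day 14 (1.10% of 15956 tested) and 9 were lower (0.0564%), by the same edgeR test with 4 against 4 libraries. Together these 185 genes were 1.16% of those tested. The 176 included all 41 of the genes called before, and 135 more. Of the rises, 125 were at least 4-fold, 33 lay between 2-fold and 4-fold and 18 were smaller, with a median log2 fold change of 3.02. Of the rises, 6 had no count in any day 14 library, and with these set to a lower bound from 3 counts per library the median was 2.96. Together the 176 genes held 2.87%, 1.96%, 2.31% and 3.56% of all counts in day 21 replicates 1, 2, 3 and 5, against 0.258%, 0.294%, 0.442% and 0.466% in day 14 replicates 1 to 4. All 4 day 21 libraries lay above the highest day 14 library. Day 21 lay wholly above day 14 in 166 of the 176, where 5.44% of all tested genes did so for these 8 libraries. The same 8 libraries chose the 176, so the higher share follows from that choice and is a description. Replicate 4, which took no part in this choice, held 0.210%, below the 4 day 14 libraries. In healthy nerve the share was 10.8% to 14.5%.

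Of the 176 rises, 87 remained on average at least 4-fold below control at day 21 without replicate 4, 50 were 2-fold to 4-fold below, 31 lay within 2-fold of control and 8 were at least 2-fold above it. At day 14, 157 of them had been at least 4-fold below control, 14 had been 2-fold to 4-fold below and 5 had been within 2-fold. Of all 16015 tested genes, 971 were at least 4-fold below control at day 21 without replicate 4, and 1438 at day 14. Of the 9 falls, 6 were under 2-fold, 0 lay between 2-fold and 4-fold, and 3 were at least 4-fold, 2 of these at least 16-fold. Their median log2 fold change was -0.70 and the lowest was -8.0. Without replicate 4, day 21 and day 14 did not overlap in 5 of the 9 falls. Among all 16015 tested genes they did not overlap, in either direction, in 1190. All 9 stood at least 2-fold above control at day 14, and at day 21 without replicate 4, 6 lay within 2-fold of control and 3 at least 2-fold above it. Of all 16015 tested genes, 2995 were at least 2-fold above control at day 14, and 2632 at day 21 without replicate 4. The same libraries chose these genes, so rises lying lower and falls lying higher at day 14 than at day 21 follows from that choice. The median log2 difference of the 9 genes from the day 14 mean was -0.28 in replicate 4 and between -0.99 and -0.55 in the other day 21 libraries. At day 14 of delayed repair, outside the contrast but in the same fit, 1 of the 9 averaged below control. The count of falls moved with single libraries: with day 21 replicate 1, 2, 3 or 5 also left out it was 4, 17, 5 or 0, and with day 14 replicate 1, 2, 3 or 4 also left out it was 11, 3, 10 or 5. Without replicate 4, DESeq2 called 60 falls and voom with sample quality weights 94.

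Of the genes that rose, 2 are given by identifier, as the largest rises with no overlap between all 5 day 21 and all 4 day 14 libraries and a mean log2 CPM of at least 1. In 9 of the 41 genes the lowest day 21 library exceeded the highest day 14 library. Among all tested genes this was so in 1.01%, and the reverse in 0.562%. Since the same libraries chose the 41, the higher share among them is a description. ENSRNOG00000008855 measured 13.7, 17.7, 18.5, 1.10 and 31.8 CPM in day 21 replicates 1 to 5, against 0.339, 0.377, 0.978 and 0.340 CPM in day 14 replicates 1 to 4. Replicate 4 lay just above the highest day 14 library and far below the rest of its group. It had 18 reads, against 14 in day 14 replicate 3 and 5 or 6 in the other day 14 libraries. The rule of no overlap required replicate 4 to lie above day 14 here. In 32 of the 41 genes it lay at or below the highest day 14 library. The log2 fold change was 5.01 (SE 1.02, edgeR adjusted p = 0.0291), and without replicate 4 it was 5.31 (SE 0.94, edgeR adjusted p = 0.00251). Healthy nerve had 3.35 to 11.5 CPM and day 7 of immediate repair 1.67 to 6.85 CPM, so the day 14 values were the lowest of these 4 groups and 4 of the 5 day 21 values were above every control value.

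ENSRNOG00000007686 measured 15.0, 7.02, 8.54, 0.731 and 18.3 CPM in day 21 replicates 1 to 5, against 0.0678, 0.565, 0.210 and 0.612 CPM in day 14 replicates 1 to 4. The day 14 values rest on 1 to 9 reads per library and those of day 21 on 12 to 286. Replicate 4 again lay just above the day 14 libraries, where the rule of no overlap required it to be above. The log2 fold change was 4.72 (SE 0.75, edgeR adjusted p = 0.0109), and 5.03 (SE 0.61, edgeR adjusted p = 3.82e-05) without replicate 4. Control nerve held 78.5 to 111 CPM, so that every day 21 library remained below every control library, unlike the gene before.

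No fall passed the test with all 9 libraries. The lower genes with the smallest unadjusted p, no overlap and the same minimum level were ENSRNOG00000059968 and ENSRNOG00000049900. ENSRNOG00000059968 measured 142, 161, 147, 150 and 84.7 CPM in day 21 replicates 1 to 5, against 216, 221, 231 and 184 CPM in day 14 replicates 1 to 4, and 93.7 to 114 CPM in control nerve. Its log2 fold change was -0.64 (SE 0.15, edgeR adjusted p = 0.0553), and -0.67 (SE 0.16, edgeR adjusted p = 0.0263) without replicate 4. Replicate 5 was the low library here, and replicate 4 lay with the other day 21 libraries. ENSRNOG00000049900 measured 90.9, 77.2, 66.5, 85.3 and 56.9 CPM at day 21, against 111, 105, 146 and 96.3 CPM at day 14 and 44.3 to 61.3 CPM in control nerve. Its log2 fold change was -0.60 (SE 0.14, edgeR adjusted p = 0.0676), and -0.65 (SE 0.15, edgeR adjusted p = 0.0250) without replicate 4. As the rule required, all day 21 libraries, replicate 4 included, lay below the day 14 libraries in both genes. In each, the highest control value was below the lowest day 14 value.

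**Figure D3:**
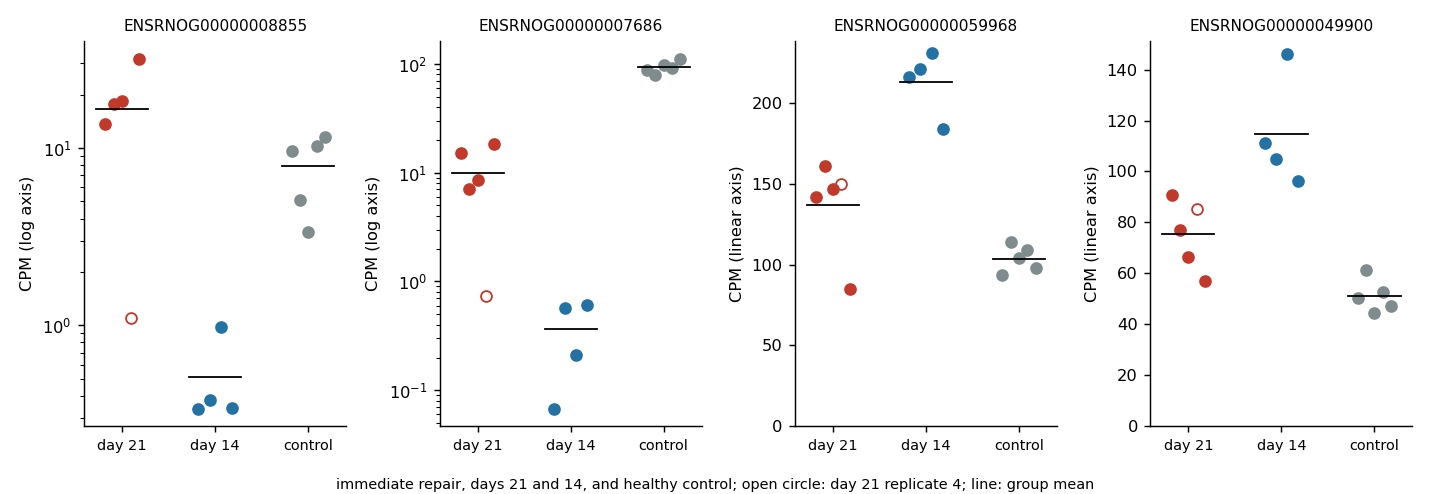
CPM of the 4 genes given by identifier in each library of immediate repair at day 21 (5) and day 14 (4) and of healthy control nerve (5), with group means as lines, on a log axis for the rises and a linear axis for the lower genes. Day 21 replicate 4 (open circle) is at 1.10 and 0.731 CPM in the rises, next to the day 14 libraries. In the lower genes it is at 150 and 85.3 CPM, among the other day 21 libraries. All 4 genes were chosen for no overlap between the days, with replicate 4 counted in.

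The number of genes called depended on single libraries. Leaving out day 21 replicate 1, 2, 3, 4 or 5 gave 21, 30, 21, 185 or 12 calls in the edgeR test, and leaving out day 14 replicate 1, 2 or 3 gave none and replicate 4 gave 15. The lowest adjusted p was 0.0593, 0.0713 and 0.0783 without day 14 replicates 1, 2 and 3, and 1120, 1007 and 1266 genes then had an unadjusted edgeR p under 0.05. With the 9 libraries fitted alone no gene was called, at a lowest adjusted p of 0.565 and with 1008 genes at an unadjusted edgeR p under 0.05. DESeq2 called 136 higher and 17 lower, all 41 among them, and limma voom with sample quality weights called 138 higher and 32 lower, 28 of the 41 among them. Without replicate 4, leaving out each of the 8 remaining libraries of the comparison in turn gave 105 to 197 calls; the other 21 libraries were not left out in that setting. Those 8 libraries fitted alone gave 164 rises (1.15% of 14294 genes) and 4 falls (0.0280%), and 106 of the 185 genes were among these 168.

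**Figure D4:**
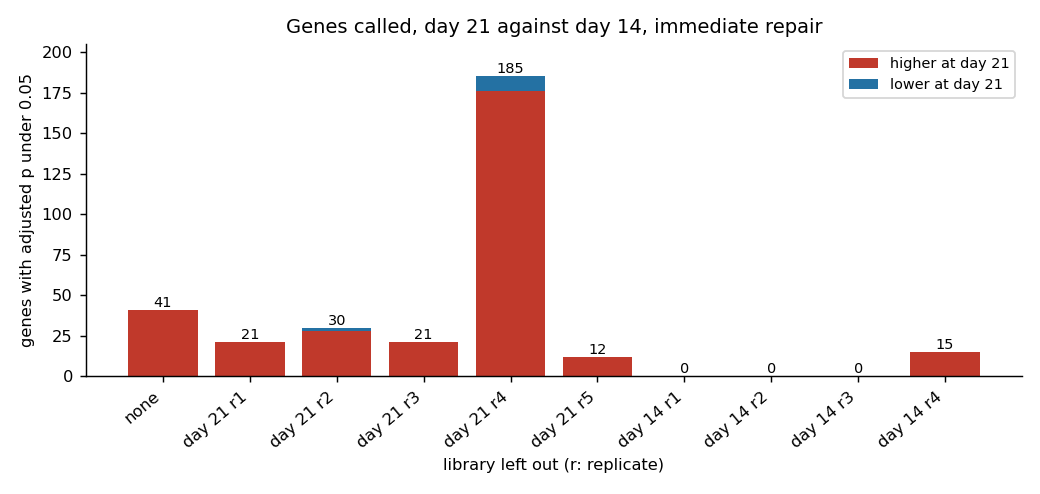
Number of genes with an edgeR adjusted p under 0.05 for day 21 against day 14 of immediate repair, stacked by direction, with no library left out (41) and with each of the 9 libraries left out in turn. The bar without day 21 replicate 4 reaches 185, and those without day 14 replicates 1, 2 and 3 are at 0.

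The same week after delayed repair shares no library with this contrast, although both were estimated in the same fit. There no gene was called in the edgeR test (3 against 4 libraries), 620 genes (3.87%) had an unadjusted p under 0.05, DESeq2 called 36 genes and voom with sample quality weights 69. For the 41 genes, the delayed estimates were all above 0, where 50.0% of all tested genes were, with a median log2 difference of 2.46 against 0.00 over all genes. Of the 176 genes, 171 had delayed estimates above 0, with a median of 1.71. Of the 41 genes, 30 had an unadjusted edgeR p under 0.05 in the delayed repair. Delayed day 21 lay wholly above delayed day 14 in 15 of the 41, and in 3.49% of all tested genes. Deviations of same-numbered immediate and delayed libraries from their group means correlated at 0.084 to 0.41 at day 14. At day 21 they correlated at -0.074 to -0.023. Whether the day 14 libraries of the repairs are independent was not tested. The libraries were again unequal: the 41 genes held 0.266%, 0.261% and 0.0601% of counts in delayed day 21 replicates 1, 2 and 3, against 0.0563%, 0.0478%, 0.0675% and 0.0530% in delayed day 14 replicates 1 to 4. Delayed day 21 replicate 3 lay within the range of delayed day 14, and without it 22 genes were called higher in the delayed repair. ENSRNOG00000007686 measured 3.15, 3.73 and 0.479 CPM at day 21 and 0 to 0.307 CPM at day 14 of delayed repair (log2 difference 3.72, SE 0.86, edgeR adjusted p = 0.197). ENSRNOG00000049900, lower at day 21 after immediate repair, measured 111 to 125 CPM at day 21 and 87.7 to 103 CPM at day 14 of delayed repair (log2 difference 0.26, SE 0.16, edgeR adjusted p = 1.00).

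An interaction term set the change after immediate repair against that after delayed repair, and no gene was called (edgeR). Before adjustment 385 genes (2.40%) had an edgeR p under 0.05, and DESeq2 called 4. Without immediate day 21 replicate 4 the interaction again gave no call, at a lowest edgeR adjusted p of 0.259. For ENSRNOG00000007686 the immediate change exceeded the delayed change by 1.01 on the log2 scale (SE 1.25), and for ENSRNOG00000008855 by 1.84 (SE 1.37). For the lower genes the immediate minus delayed difference was -0.86 in ENSRNOG00000049900 (SE 0.21) and -0.54 in ENSRNOG00000059968 (SE 0.22), both among the 385 genes. All 4 genes were chosen by their change after immediate repair. That change is part of the interaction term, so the choice favored these signs and small unadjusted p-values. The adjusted edgeR p was 1.00 for each of the 4 genes. Across the 16015 genes the log2 changes of the repairs had a Pearson r of 0.385 and a Spearman rho of 0.285, as a description over genes, which are not independent replicates.

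**Figure D5:**
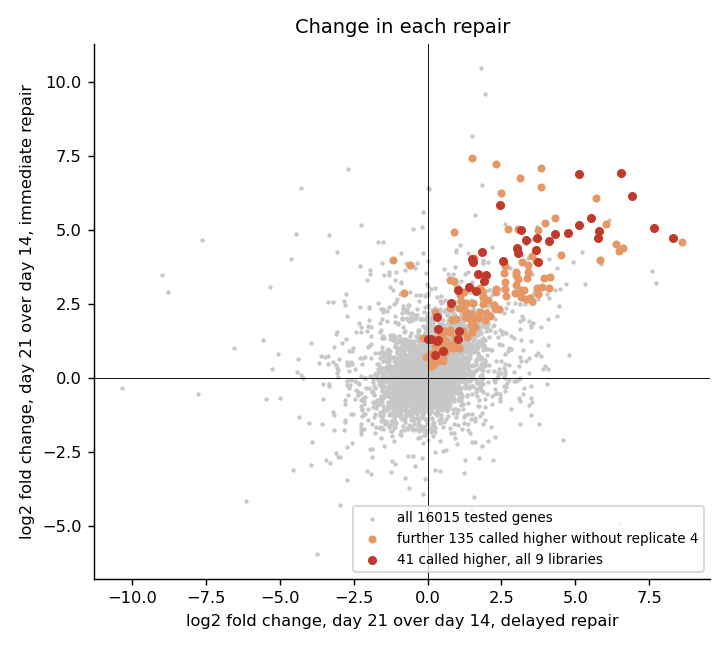
Log2 fold change of day 21 over day 14 after immediate repair (vertical axis, all 9 libraries) against that after delayed repair (horizontal axis, 7 libraries), 1 point per gene. The 41 genes called higher after immediate repair all lie right of 0 on the delayed axis, and 171 of the 176 called without replicate 4 do.

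In the preceding week of immediate repair, day 14 against day 7, 3119 genes rose (19.5%) and 2285 fell (14.3%), 33.7% of the genes tested in all (edgeR, adjusted p under 0.05, 4 against 4 libraries). The day 14 libraries are the same in both comparisons. ENSRNOG00000008855 was lower at day 14 than at day 7, with a log2 difference of -3.25 (SE 0.98, edgeR adjusted p = 0.0126). ENSRNOG00000007686 had a log2 difference of 1.09, day 14 minus day 7 (SE 1.00, edgeR adjusted p = 0.423).

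Over all tested genes, the likeness of each library to healthy nerve was compared between the days as 1 test. The Spearman correlation with the control mean was 0.861, 0.874, 0.874, 0.778 and 0.899 in day 21 replicates 1 to 5, against 0.830, 0.791, 0.825 and 0.834 in day 14 replicates 1 to 4. All day 21 libraries but replicate 4 lay above every day 14 library, and replicate 4 lay below them. The mean difference of 0.0372 did not pass (two-sided exact permutation test, p = 0.222, where the smallest possible was 0.0159). Without replicate 4 the difference was 0.0570 (two-sided exact permutation test, p = 0.0286, the smallest that 70 arrangements can give). Replicate 4 was the only day 21 library not above every day 14 library, so leaving it out fixed this p. That p is therefore a description and decides nothing about the days.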

How the data were processed

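The authors deposited raw read counts per Ensembl rat gene, whole numbers, in 1 table of 30 libraries. Poly(T) capture from 400 ng of RNA (integrity number above 6) gave libraries without strand marking, per the labels' protocols, so overlapping and antisense genes cannot be told apart. DESeq2 1.38.3, featureCounts 1.5.0-p3 and HISAT2 2.0.5 are named, with no role, in the submitters' processing notes. The sources used here do not give the build or how reads of near-identical genes were counted. Columns were matched to samples by library name.

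The test was that of edgeR 4.0.16 in R 4.3.3: filterByExpr by group (16015 of 32545 genes kept), TMM factors, and 1 robust quasi-likelihood fit of 7 groups over all 30 libraries, which share an estimate of spread, with Benjamini-Hochberg adjustment over all genes tested and a threshold of 0.05. SEs come from the test statistic. CPM use TMM-scaled totals, and log2 CPM a prior count of 2. The fit was also run on simulated counts, in which no library was set apart from its group as day 21 replicate 4 is. That run therefore does not cover such a case. The 16 pairs of replicates differed beyond sampling noise (chi-square per degree of freedom 37.1 to 169). Alternatives were DESeq2 1.42.0, limma 3.58.1 voom with sample quality weights, relative log expression factors, no filter, the compared libraries alone, a replicate block and each library left out. Those applied on top of leaving out day 21 replicate 4, other than the compared libraries alone, were added after seeing the data. Leaving out libraries outside a comparison was also added then. Comparisons and lists were chosen with earlier results of these data known. Gene lists fixed by symbol were not tested because 0 identifiers matched a symbol. The rule for named genes took, without symbols, 2 rises and 2 lower genes by identifier: the largest log2 changes where groups did not overlap, the mean log2 CPM was 1 or more and the adjusted p was under 0.05, then, where too few passed, the smallest unadjusted p under 0.01. Counting error adds to the spread of genes with few counts.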

Additional observations from a re-analysis of the deposited data

Results flagged for a closer look

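In 18 groups of values checked (9 measures in the day 21 and in the day 14 group of immediate repair), 5 held a library farther from the rest than Dixon's 95% criterion allows, where chance gives about 1 in 20. Of the 5, 3 concern day 21 replicate 4 as the lowest library of its group. Its median log2 difference from the day 14 mean was -0.18 over the 41 genes called higher with all 9 libraries, where the other day 21 libraries had 3.34 to 4.69. Over the 176 genes called higher without it, the same median was -0.62, against 2.48 to 3.22. Those 176 genes were chosen for being high in the other 4 libraries, and the 41 with these libraries too. ENSRNOG00000008855 and ENSRNOG00000059968, which hold the other 3 flags, were also chosen from these libraries. The 41 genes are moreover among the 176, so the chance rate does not apply to any of the 5. ENSRNOG00000008855 stood at 0.30 log2 CPM in replicate 4, against 3.79 to 5.00 in the other 4. In day 21 replicate 5, ENSRNOG00000059968 was lowest at 6.41 log2 CPM, and 7.15 to 7.33 in the others. In day 14 replicate 3, ENSRNOG00000008855 was highest at 0.157 log2 CPM, from 14 reads, and -1.07 to -0.96 in the others, from 5 or 6 reads.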

How the results depend on the processing

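The count of 41 for day 21 against day 14 of immediate repair was 41 with relative log expression factors, but 153 by DESeq2, 26 without the filter, 170 by voom with quality weights, and 0 with the 9 libraries alone. Leaving out 1 library gave 0 to 185, and the count was 25 without control replicate 1, 2, 3 or 4 and 27 without delayed day 14 replicate 4. Without day 21 replicate 4 the count of 185 was 399 with DESeq2 and 602 with voom, and 105 to 197 with a further library left out (113 and 105 without day 14 replicates 1 and 2, 109 without day 21 replicate 5). The delayed count of 0 was 36 with DESeq2, 69 with voom, 1 with its libraries alone, and 0 to 29 with a library left out: 22 and 1 without delayed day 21 replicates 3 and 2, and 29 without immediate day 21 replicate 4, which is outside that comparison but in the same fit. The interaction count of 0 was 4 with DESeq2 and 0 with each library left out. The 5404 genes of day 14 against day 7 were 3021 with those libraries alone and 4087 to 6109 with a library left out. The difference in correlation with control was 0.0267 to 0.0570 with a library left out.

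Replicate numbers are shared between the days but did not pair the libraries: correlations of same-numbered deviations were -0.28 to 0.17 over 4 pairs, and 1 of 4 day 21 libraries correlated best with its own number. Between immediate and delayed day 14 the correlations were 0.084 to 0.41, with 3 of 4 pairs over 0.1 and 3 of 4 best with their own number, and between immediate and delayed day 21 they were -0.074 to -0.023 over 3 pairs. With the replicate block the count of 41 was 0, that of 185 was 113, and the counts for delayed repair and the interaction were 0. The causes were not tested. The 4 genes given by identifier kept their direction in all 36 alternatives each, but not their calls: ENSRNOG00000008855 passed in 28 and ENSRNOG00000007686 in 31 (adjusted p up to 0.565 for both), ENSRNOG00000059968 in 6 and ENSRNOG00000049900 in 4. Depth limits genes of few reads, where day 14 values rest on single counts.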
